A study of Homo sapiens with 12 samples.

Results

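Interferon-stimulated genes are genes that cells transcribe more strongly after interferons act on them. The 40 described here are protein-coding genes of that class outside its best-known OAS, IFIT, MX and guanylate-binding families. They were picked by gene symbol, with earlier results of these data known, and all 40 were found among the 58735 genes of the count table. RNA was sequenced from KP4 and MiaPaca2, established cell lines of human pancreatic ductal adenocarcinoma. The 4 groups held 3 libraries each: KP4 cells given 100 nM trametinib for 48 h, KP4 cells given the solvent DMSO for 48 h, MiaPaca2 cells given 100 nM trametinib for 48 h, and MiaPaca2 cells given DMSO for 48 h. Trametinib inhibits MEK1 and MEK2, the kinases that activate ERK at the end of the RAS-RAF-MEK-ERK cascade. The labels name no added interferon. Both lines were grown in DMEM with serum, antibiotics and HEPES. Cultured lines lack the stroma and immune cells of a tumour, and 2 lines stand for 2 tumours only. Whether the 3 libraries of a group are separate cultures is not in the labels. The p-values therefore reflect library-to-library spread, part or all of which may be technical.

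Interferons are secreted proteins that bind receptors on the cell surface. The kinases JAK1 and TYK2 on the type I and type III receptors then phosphorylate STAT proteins, among them STAT2, which joins IRF9 in the complex ISGF3, and ISGF3 binds the interferon-stimulated response element (ISRE) in promoters. Interferon gamma acts mainly through another element, GAS. The products of the target genes restrict viruses at many steps: they block entry and release, deplete or alter nucleotides, mark viral RNA and proteins, arrest translation and promote cell death. Tumour cells can express such genes without added interferon.

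Total counts ran from 20293688 to 28018129 per library. Levels below are in CPM, the counts of a gene scaled to a common library size with edgeR's TMM factors. A gene at 0 counts in a group of 3 libraries can still be present at up to 0.0365 CPM in KP4 trametinib, 0.0380 CPM in KP4 DMSO, 0.0432 CPM in MiaPaca2 trametinib and 0.0427 CPM in MiaPaca2 DMSO (3 counts over the group, counting error only). Of 6 genes that ERK signalling is known to drive (DUSP6, SPRY4, ETV4, ETV5, EGR1, PHLDA1), all 6 were lower with trametinib in both lines. The MiaPaca2 DMSO library of replicate 2 stood apart from its group. Against the other 2 libraries of the group over all genes, its counts gave chi-square values of 13.3 and 14.5 for each degree of freedom. The remaining pair of MiaPaca2 DMSO, replicates 1 and 3, gave 7.70, and the within-group pairs of the other groups gave 2.02 to 2.89. MiaPaca2 DMSO was thus the most spread group even apart from replicate 2. Without that replicate 2 library, the counts of listed genes called in each comparison below were the same. The 5 epithelial markers (KRT7, KRT8, KRT18, KRT19, EPCAM) summed to 193 to 202 CPM in KP4 trametinib and 235 to 247 CPM in KP4 DMSO, and to 671 to 686 CPM in MiaPaca2 trametinib and 1631 to 2012 CPM in MiaPaca2 DMSO. KRT8, KRT18 and KRT19 were called lower with trametinib in MiaPaca2, and EPCAM was under 1 CPM in every library. The 6 fibroblast markers summed to 14.2 to 15.2 CPM in KP4 trametinib and 8.2 to 9.52 CPM in KP4 DMSO, and to 241 to 256 CPM in MiaPaca2 trametinib and 76.8 to 128 CPM in MiaPaca2 DMSO. COL1A1 and COL3A1 were called higher in both lines and COL1A2 in MiaPaca2, while the fibroblast marker DCN had 3 counts or fewer in each group. The 4 endothelial markers summed to 1.56 to 1.83 CPM in KP4 trametinib and 1.48 to 2.18 CPM in KP4 DMSO, and to 1.53 to 2.90 CPM in MiaPaca2 trametinib and 1.95 to 2.39 CPM in MiaPaca2 DMSO, with KDR at 0 counts in all libraries. The 8 leukocyte markers summed to 11.4 to 13.8 CPM in KP4 trametinib, 8.70 to 10.7 CPM in KP4 DMSO, 6.62 to 8.49 CPM in MiaPaca2 trametinib and 6.01 to 7.75 CPM in MiaPaca2 DMSO. Of these, NCAM1 averaged 10.8 and 7.52 CPM in KP4 trametinib and DMSO, and 1.65 and 0.739 CPM in MiaPaca2 trametinib and DMSO. PTPRC averaged 0.561 and 1.35 CPM in KP4, and 4.40 and 3.30 CPM in MiaPaca2, in the same order. The T-cell marker CD3E and the plasmacytoid dendritic cell markers CLEC4C and LILRA4 had 0 counts in all 12 libraries. IL3RA, the remaining marker of those dendritic cells, had 1.06 ± 0.0492 CPM in KP4 trametinib and 0.251 ± 0.0839 CPM in KP4 DMSO, and 2.79 ± 0.279 CPM in MiaPaca2 trametinib and 0.101 ± 0.112 CPM in MiaPaca2 DMSO. Its rise was 2.04 ± 0.42 (adjusted p = 2.48e-04) on the log2 scale in KP4 and 4.74 ± 0.47 (adjusted p = 2.03e-09) in MiaPaca2, and the part of these markers in the results was not tested.

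Trametinib raised the listed genes in both lines, and it raised most of them further in MiaPaca2 than in KP4. Their summed level was 3492 ± 76.7 CPM in KP4 trametinib and 1249 ± 11.9 CPM in KP4 DMSO (SD, n = 3 each), a 2.80-fold change. In MiaPaca2 the sum was 11278 ± 246 CPM with trametinib and 1227 ± 25.9 CPM with DMSO, a 9.19-fold change. The sums of the lines were far apart in trametinib and nearly equal in DMSO. In bulk libraries, fewer expressing cells and less RNA per cell cannot be told apart.

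**Figure D1:**
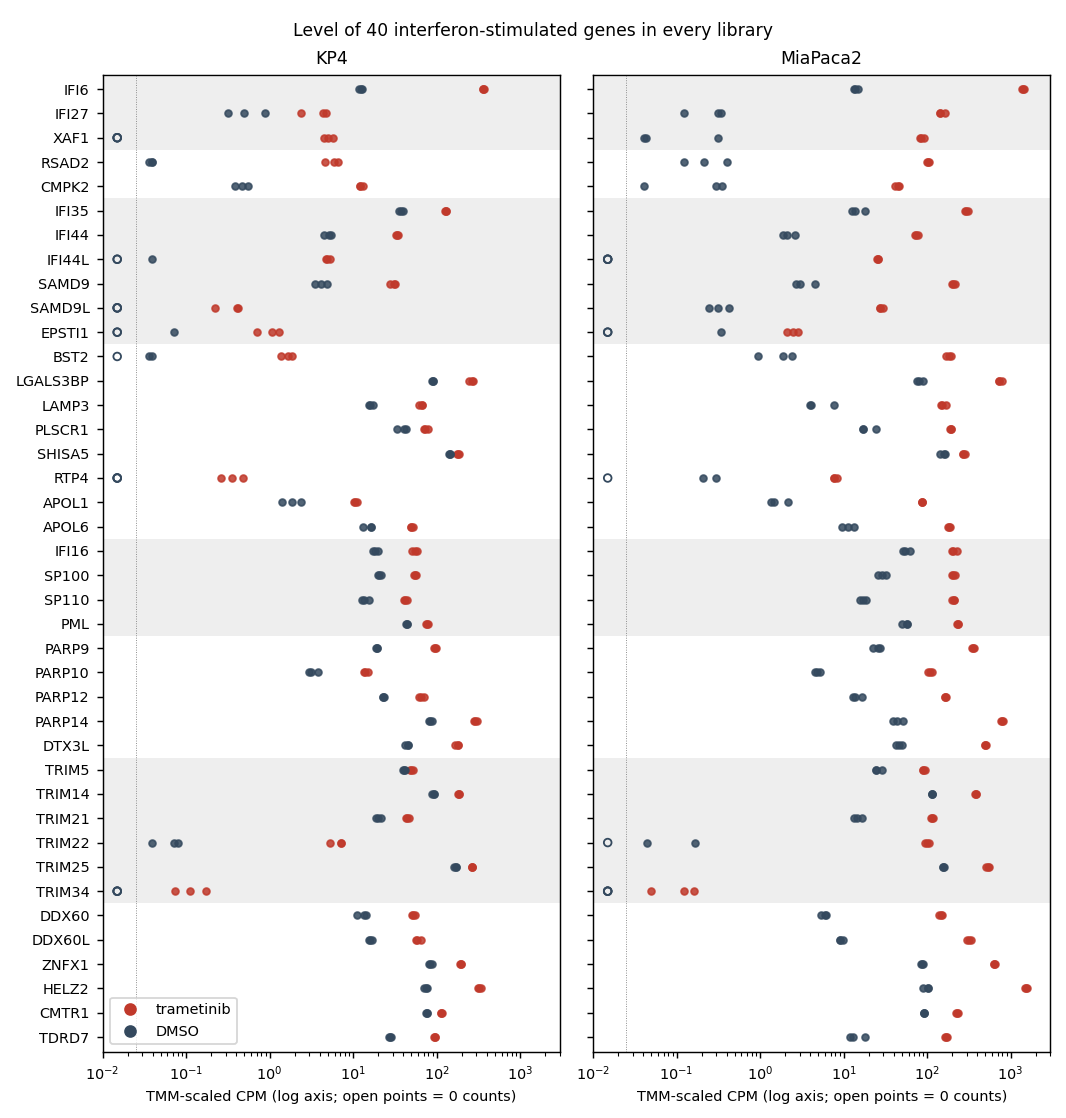
Level of each of the 40 listed genes in every library, in TMM-scaled CPM on a log axis, with KP4 on the left and MiaPaca2 on the right; red points are trametinib libraries, dark points DMSO libraries, and open points left of the dotted line are libraries with 0 counts. Grey and white bands separate the 8 role groups in the order of the text, and in every tested gene the 3 red points of a line lie to the right of its 3 dark points.

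In KP4, all 39 genes that passed the filter on low counts (about 0.402 CPM in 3 libraries) were called higher with trametinib at an adjusted p under 0.05 in edgeR's quasi-likelihood test, and 0 were lower. Over all 16133 genes tested, 23.6% were called higher and 23.6% lower. The median log2 fold change of the 39 was 1.97, against 0 for all genes, and 33 were at least 2-fold higher and 0 at least 2-fold lower, against 5.71% and 2.96% of all genes. A gene that passed the filter only through its trametinib level had to rise, so the 29 that passed in the KP4 DMSO libraries alone are the fairer count. Of these 29, all 29 were called higher (24.6% of all genes filtered that way) and 23 at least 2-fold (3.84%), with a median of 1.71.

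MiaPaca2 gave the same direction and larger sizes. Again 39 of the 39 tested were called higher and 0 lower, where 34.1% of all genes were higher and 29.5% lower. Their median log2 fold change was 4.14, against 0.05 for all genes, and 38 were at least 2-fold higher and 0 at least 2-fold lower, against 12.7% and 4.72% of all genes. Among the 30 that passed the filter in MiaPaca2 DMSO alone, 30 were higher (33.4%) and 29 at least 2-fold higher (9.04%), with a median of 3.58. In both lines every trametinib library lay above every DMSO library for 39 genes and below for 0. Over all tested genes the share above was 29.6% in KP4 and 34.6% in MiaPaca2, and the share below 30.5% and 29.8%. For genes that did not pass the filter in DMSO alone, the filter favoured this separation. The 29 genes that passed in KP4 DMSO alone and the 30 in MiaPaca2 DMSO alone were all separated. The share of all genes filtered that way was not computed.

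The difference between the responses, KP4 minus MiaPaca2, was negative and past the threshold for 32 of the 39 and positive for 0, where 19.9% of all genes were called lower and 16.2% higher. It was at least 2-fold lower for 28 (5.33% of all genes) and at least 2-fold higher for 0 (2.06%), and its median was −1.78 on the log2 scale, against −0.05 for all genes. All 29 genes that passed the filter in both DMSO groups were called lower and 0 higher, against 22.4% and 19% of genes filtered that way. The 7 without a call were XAF1, RSAD2, IFI44L, SAMD9L, EPSTI1, BST2 and RTP4, each with 3 counts or fewer in the KP4 DMSO group. Limma-voom, an alternative test, called 3 of those 7 lower in KP4 as well: RSAD2 (adjusted p = 0.0359), IFI44L (adjusted p = 0.0153) and SAMD9L (adjusted p = 0.0326).

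**Figure D2:**
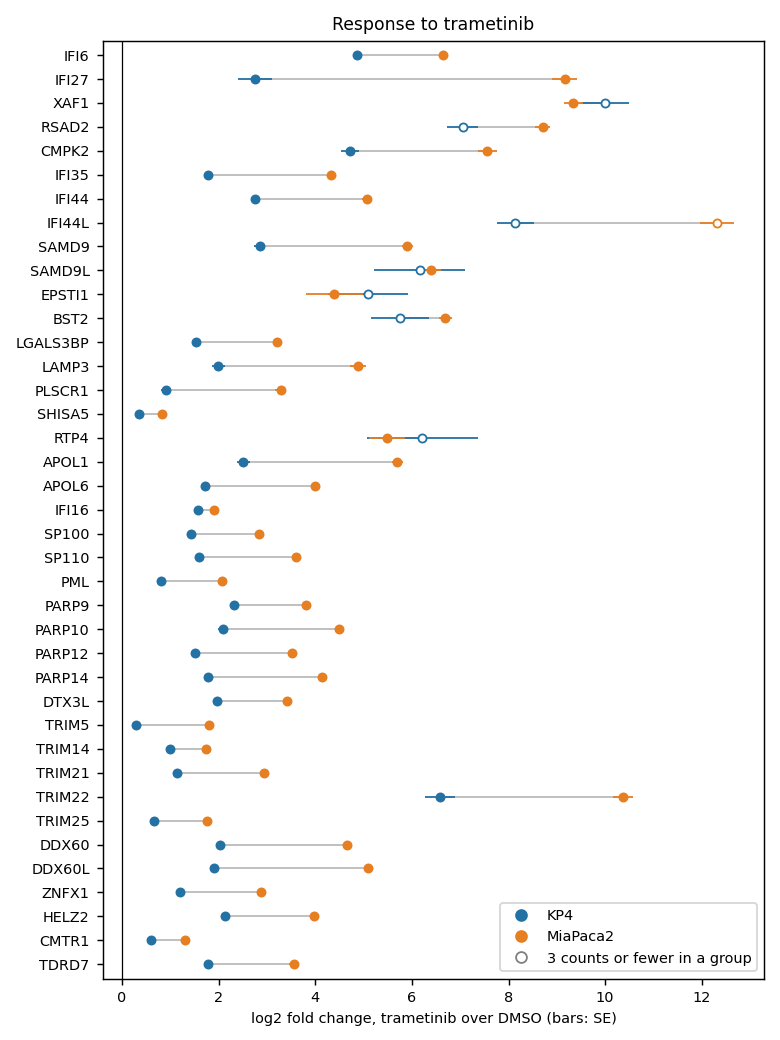
Log2 fold change of the 39 tested genes, trametinib over DMSO, in KP4 (blue) and MiaPaca2 (orange), with the standard error as a bar and a grey line joining the lines' values; open points mark a response with 3 counts or fewer in a group, whose size depends on the fit's prior. All points lie right of 0, and the orange point lies right of the blue one in every gene except XAF1, EPSTI1 and RTP4.

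The order of the genes was much alike in both lines. Over the 29 genes that passed the filter in both DMSO groups, the responses had a Pearson correlation of 0.88 and a Spearman correlation of 0.90 across genes, against 0.71 and 0.67 over the 13201 genes filtered that way. These genes share the same 12 libraries and are not independent replicates. The median ratio of the log2 fold changes, MiaPaca2 over KP4, was 2.27 over the 29 and 1.12 over the 13201. Low basal level went with a large rise: in KP4 the median log2 fold change was 6.19 for 10 genes under 1 CPM in DMSO, 1.78 for 21 genes between 1 and 50 CPM, and 1.10 for 8 genes at 50 CPM or more. The MiaPaca2 medians over the same classes were 8.71 for 9 genes, 4.14 for 21 genes and 1.90 for 9 genes. The class under 1 CPM holds genes that had to rise to be tested, and a DMSO level enters both measures.

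Promoter letters were read in RefSeq windows (GRCh38.p14) of 250 bases before the start of transcription, which were at hand for 33 of the 40 genes, some with more than 1 start. The ISRE was searched on both strands as GAAA, any 2 bases, and GAAA again. It occurred in 19 of the 33 genes (57.6%), against 3.71% of all 27305 genes with such a window. The GAS letters TTCNNNGAA occurred in 7 of 33 (21.2%, against 8.09%), and the AP-1 letters TGANTCA in 4 of 33 (12.1%, against 8.06%); in IFI27, BST2 and EPSTI1 a GAS match overlaps ISRE letters. The 18 tested genes with ISRE letters had a median log2 fold change of 2.53 in KP4 and 4.87 in MiaPaca2, and the 14 tested genes without them 1.69 in KP4 and 3.49 in MiaPaca2. The ranges overlapped widely, and XAF1, whose windows hold no ISRE letters, was at least 134-fold higher with trametinib in KP4. A match is a run of letters and not a shown binding site. The windows below come from 6 genes that differ in the number and layout of matches and in response: IFI6 on the minus strand (chr1:27672193-27672442) with 3 matches, IFI27 on the plus strand (chr14:94110486-94110735) with 2 matches facing opposite ways, BST2 on the minus strand (chr19:17405631-17405880) with 2 overlapping matches, the neighbours DDX60 (chr4:168318753-168319002) and DDX60L (chr4:168480493-168480742) on the minus strand with 2 each, and XAF1 on the plus strand (chr17:6755197-6755446) with 0. They are written 5′ to 3′ on the strand of the gene, and capitals mark the ISRE letters.
IFI6: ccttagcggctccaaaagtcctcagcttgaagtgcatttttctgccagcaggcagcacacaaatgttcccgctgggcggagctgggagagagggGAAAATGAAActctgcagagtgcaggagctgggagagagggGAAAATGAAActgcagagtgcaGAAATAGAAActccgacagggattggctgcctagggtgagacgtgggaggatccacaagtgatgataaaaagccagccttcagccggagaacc
IFI27: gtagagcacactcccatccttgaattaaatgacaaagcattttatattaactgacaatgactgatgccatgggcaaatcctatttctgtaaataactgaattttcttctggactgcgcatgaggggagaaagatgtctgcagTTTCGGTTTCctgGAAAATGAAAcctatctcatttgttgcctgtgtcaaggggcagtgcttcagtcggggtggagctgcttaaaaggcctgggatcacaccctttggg
BST2: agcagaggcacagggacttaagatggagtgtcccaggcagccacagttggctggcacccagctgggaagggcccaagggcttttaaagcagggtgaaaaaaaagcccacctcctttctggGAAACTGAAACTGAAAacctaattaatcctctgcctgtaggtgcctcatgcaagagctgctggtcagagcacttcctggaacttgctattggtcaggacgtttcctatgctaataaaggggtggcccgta
DDX60: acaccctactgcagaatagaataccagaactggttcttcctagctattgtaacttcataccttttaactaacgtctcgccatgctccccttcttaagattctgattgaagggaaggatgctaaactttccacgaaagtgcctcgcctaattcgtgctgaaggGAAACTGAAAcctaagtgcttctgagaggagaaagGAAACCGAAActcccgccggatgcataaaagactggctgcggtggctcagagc
DDX60L: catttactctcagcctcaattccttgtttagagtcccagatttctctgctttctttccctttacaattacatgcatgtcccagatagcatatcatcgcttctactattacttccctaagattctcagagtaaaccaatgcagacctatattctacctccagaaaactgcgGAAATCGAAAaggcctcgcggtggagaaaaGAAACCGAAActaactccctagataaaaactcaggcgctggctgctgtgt
XAF1: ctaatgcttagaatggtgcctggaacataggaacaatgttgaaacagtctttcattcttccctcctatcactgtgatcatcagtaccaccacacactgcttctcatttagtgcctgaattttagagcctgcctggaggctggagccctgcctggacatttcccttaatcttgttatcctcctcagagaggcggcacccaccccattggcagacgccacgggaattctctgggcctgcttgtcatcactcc
The first letter of the IFI6 matches lies 156, 115 and 93 bases before the start, and those of DDX60 88 and 53 bases before it. In DDX60L they lie at 80 and 50 bases before a start inside the annotated gene, whose outermost start is chr4:168537786. The IFI27 window likewise precedes a start inside the annotated gene.

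The first role group holds small membrane or apoptosis-linked proteins. IFI6 (ENSG00000126709, chr1:27666061-27672218, GRCh38), which guards cells from apoptosis and restricts flaviviruses, had 360.2, 357 and 367 CPM in KP4 trametinib, against 11.9, 12.7 and 12.5 CPM in KP4 DMSO. IFI6 in MiaPaca2 stood at 1353, 1397 and 1448 CPM with trametinib, against 13.7, 13.4 and 14.9 CPM with DMSO. The libraries of a group lay close together and far from the other group in both lines. IFI6 rose by 4.87 ± 0.05 (adjusted p = 1.71e-29) on the log2 scale in KP4 and by 6.65 ± 0.05 (adjusted p = 2.00e-32) in MiaPaca2 (± SE). Per exon length it was the most abundant of the 40 genes under the drug, with 1618 ± 54.9 FPKM (CPM divided by the exon length in kilobases) in MiaPaca2 trametinib and 418 ± 5.81 FPKM in KP4 trametinib.

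IFI27 (ENSG00000165949, chr14:94104836-94116698), a mitochondrial relative of IFI6, had the largest difference in response among the called genes. It stood at 4.39, 2.35 and 4.78 CPM in KP4 trametinib, against 0.317, 0.894 and 0.501 CPM in KP4 DMSO. MiaPaca2 libraries reached 142, 144 and 162 CPM of IFI27 with trametinib, against 0.124, 0.341 and 0.310 CPM with DMSO. The KP4 groups were spread widely without overlap, and the MiaPaca2 groups were far apart. IFI27 rose by 2.75 ± 0.35 (adjusted p = 2.20e-05) in KP4 and by 9.16 ± 0.25 (adjusted p = 1.08e-12) in MiaPaca2, a difference of −6.41 ± 0.73 (adjusted p = 1.51e-05).

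XAF1 (ENSG00000132530, chr17:6755447-6775647), which counters the apoptosis inhibitor XIAP, was counted in KP4 under the drug only. XAF1 had 5.69, 4.52 and 5.01 CPM in KP4 trametinib and 0 counts in the 3 KP4 DMSO libraries, so it was at least 134-fold higher (adjusted p = 6.68e-14). XAF1 in MiaPaca2 stood at 91.7, 82.4 and 84.9 CPM with trametinib, against 0.0412, 0.0426 and 0.310 CPM with DMSO, of which replicate 3 held most of the counts. Its log2 fold change in MiaPaca2 was 9.34 ± 0.19 (adjusted p = 1.16e-21), and 10.84 without that DMSO replicate. The antisense transcript PRAL overlaps 38.3% of the XAF1 exons and held 50 counts in all libraries, against 6435 for XAF1.

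RSAD2 and CMPK2 are head-to-head neighbours on chromosome 2, with outermost annotated starts 829 bases apart. The RSAD2 window that holds ISRE letters begins further into the annotated gene, at chr2:6877527. RSAD2 (ENSG00000134321, chr2:6865806-6898239), or viperin, makes a chain-terminating analogue of CTP, and CMPK2 (ENSG00000134326, chr2:6840570-6866635) is a mitochondrial nucleotide kinase. RSAD2 had 5.90, 4.60 and 6.64 CPM in KP4 trametinib and 3 counts over the KP4 DMSO group, a ratio of 150.5 (exact 95% interval 51.2 to 732, adjusted p = 1.35e-15). RSAD2 in MiaPaca2 stood at 100.3, 103 and 106 CPM with trametinib, against 0.124, 0.213 and 0.399 CPM with DMSO, a rise of 8.71 ± 0.16 (adjusted p = 2.20e-24). Both lines thus showed near-absent RSAD2 in DMSO. CMPK2 had 13.2, 12.1 and 12.1 CPM in KP4 trametinib, against 0.554, 0.388 and 0.465 CPM in KP4 DMSO. CMPK2 in MiaPaca2 reached 45.0, 41.0 and 46.0 CPM with trametinib, against 0.0412, 0.298 and 0.355 CPM with DMSO. CMPK2 rose by 4.72 ± 0.19 (adjusted p = 7.53e-17) in KP4 and by 7.56 ± 0.19 (adjusted p = 1.92e-21) in MiaPaca2. The KP4 response was the smaller, with a difference of −2.84 ± 0.43 (adjusted p = 1.04e-05). The neighbours kept different ratios: under trametinib KP4 held more CMPK2 than RSAD2 per exon length (2.90 ± 0.154 FPKM and 1.18 ± 0.214 FPKM), and MiaPaca2 held less (10.2 ± 0.617 FPKM and 21.3 ± 0.604 FPKM).

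The cytosolic effectors comprise 6 genes, all 6 higher in both lines. IFI35 (ENSG00000068079, chr17:43006725-43014456), a leucine-zipper protein that pairs with NMI, was the most abundant in CPM. It had 129, 128 and 130.2 CPM in KP4 trametinib, against 35.6, 37.2 and 39.5 CPM in KP4 DMSO. IFI35 in MiaPaca2 stood at 288, 294 and 308 CPM with trametinib, against 12.7, 18.2 and 13.7 CPM with DMSO. KP4 began higher and ended lower than MiaPaca2, with rises of 1.78 and 4.32 and a difference of −2.54 ± 0.11 (adjusted p = 6.71e-13).

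IFI44 and IFI44L lie in tandem on chromosome 1 with 3651 bases between them. IFI44 (chr1:78649796-78664078) averaged 33.8 ± 0.868 CPM in KP4 trametinib and 4.98 ± 0.494 CPM in KP4 DMSO, and 74.5 ± 3.33 CPM in MiaPaca2 trametinib and 2.21 ± 0.382 CPM in MiaPaca2 DMSO (SD, n = 3 each). IFI44L (ENSG00000137959, chr1:78619922-78646145), its paralogue, had 5.31, 4.71 and 4.93 CPM in KP4 trametinib and 1 count over the KP4 DMSO group, a ratio of 394 (exact 95% interval 70.3 to 15589, adjusted p = 1.50e-14). IFI44L in MiaPaca2 stood at 26.1, 25.7 and 24.9 CPM with trametinib and at 0 counts with DMSO, at least 599-fold higher (adjusted p = 3.03e-19). So IFI44 had a basal level in both lines, and IFI44L had next to none. The fitted KP4 rise of IFI44L, 8.14, was 9.97 without KP4 DMSO replicate 1, which held the single count. No 50-base stretch of either transcript occurred in any other gene.

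SAMD9 (ENSG00000205413, chr7:93099513-93118023) and SAMD9L (ENSG00000177409, chr7:93130055-93148369) are adjacent paralogues on chromosome 7 that restrict poxviruses and slow cell growth. SAMD9 had 30.6, 27.5 and 31.6 CPM in KP4 trametinib, against 4.83, 4.16 and 3.51 CPM in KP4 DMSO. SAMD9 in MiaPaca2 reached 207, 199.8 and 214 CPM with trametinib, against 4.58, 2.68 and 3.01 CPM with DMSO. It rose by 2.85 ± 0.11 (adjusted p = 1.45e-14) in KP4 and by 5.91 ± 0.11 (adjusted p = 7.79e-21) in MiaPaca2, a difference of −3.06 ± 0.18 (adjusted p = 3.80e-11). SAMD9L had 0.422, 0.224 and 0.408 CPM in KP4 trametinib and 0 counts in KP4 DMSO, at least 9.28-fold higher (adjusted p = 8.28e-06). SAMD9L in MiaPaca2 stood at 29.3, 27.3 and 27.7 CPM with trametinib, against 0.247, 0.426 and 0.310 CPM with DMSO, a rise of 6.40 ± 0.20 (adjusted p = 1.49e-18). SAMD9 had a basal level in both lines, while SAMD9L stayed under 1 CPM in KP4 even with the drug. They share no 50-base stretch of sequence.

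EPSTI1 (chr13:42886388-42992271), singled out after its values were seen and first described in breast cancer cells grown with stroma, was the least abundant of this group in MiaPaca2 trametinib. It had 0.703, 1.31 and 1.08 CPM in KP4 trametinib and 2 counts over KP4 DMSO, a ratio of 40.3 (exact 95% interval 10.8 to 339). EPSTI1 in MiaPaca2 stood at 2.84, 2.12 and 2.49 CPM with trametinib and at 0, 0.341 and 0 CPM with DMSO. All 8 of its MiaPaca2 DMSO counts came from replicate 2. The log2 rise was 5.09 ± 0.82 (adjusted p = 1.77e-05) in KP4 and 4.39 ± 0.60 (adjusted p = 7.64e-07) in MiaPaca2. Single libraries moved these values: the KP4 rise was 7.68 without KP4 DMSO replicate 3, and the MiaPaca2 rise was 8.97 without MiaPaca2 DMSO replicate 2 and 3.81 without MiaPaca2 DMSO replicate 1.

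Of the 8 genes for membrane and secreted proteins, all 8 rose in both lines. LGALS3BP (ENSG00000108679, chr17:78971238-78980109), a secreted glycoprotein that binds galectins, had 272, 244 and 262 CPM in KP4 trametinib, against 90.3, 88.4 and 91.9 CPM in KP4 DMSO. LGALS3BP in MiaPaca2 stood at 736, 720.1 and 788 CPM with trametinib, against 75.5, 79.6 and 88.4 CPM with DMSO. Its DMSO levels were close in the lines, and it rose by 1.52 ± 0.05 (adjusted p = 1.65e-17) in KP4 and by 3.20 ± 0.05 (adjusted p = 4.46e-24) in MiaPaca2. SHISA5 (ENSG00000164054, chr3:48467798-48504826), an endoplasmic reticulum protein also known as scotin, showed among the smallest rises. It had 183, 185 and 177 CPM in KP4 trametinib, against 141, 144 and 146 CPM in KP4 DMSO. SHISA5 in MiaPaca2 reached 272, 283 and 272 CPM with trametinib, against 143, 159 and 164 CPM with DMSO. These groups did not overlap either, and the rises were 0.34 ± 0.04 (adjusted p = 6.60e-07) and 0.82 ± 0.04 (adjusted p = 1.88e-14).

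BST2 (ENSG00000130303, chr19:17402939-17405648), or tetherin, which holds budding virus on the cell surface, had the widest gap between the lines under the drug. It had 1.65, 1.87 and 1.37 CPM in KP4 trametinib and 2 counts over KP4 DMSO, a ratio of 64.3 (exact 95% interval 17.5 to 537, adjusted p = 1.63e-07). BST2 in MiaPaca2 stood at 168, 182 and 196 CPM with trametinib, against 1.90, 0.937 and 2.44 CPM with DMSO, a rise of 6.70 ± 0.14 (adjusted p = 7.15e-19). Even the MiaPaca2 DMSO libraries held about as much BST2 as the KP4 trametinib libraries. RTP4 (ENSG00000136514, chr3:187368332-187372076), a chaperone of membrane receptors, had 0.351, 0.262 and 0.482 CPM in KP4 trametinib and 0 counts in KP4 DMSO, at least 9.60-fold higher (adjusted p = 8.57e-05). RTP4 in MiaPaca2 stood at 7.60, 8.25 and 7.79 CPM with trametinib and at 0.206, 0.298 and 0 CPM with DMSO. Its rise there was 5.49 ± 0.37 (adjusted p = 4.36e-12), and 6.14 without MiaPaca2 DMSO replicate 2.

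APOL1 (ENSG00000100342, chr22:36253010-36267530), the apolipoprotein that lyses trypanosomes in serum, had overlapping DMSO levels in the lines (adjusted p = 0.515). It had 11.0, 10.4 and 10.5 CPM in KP4 trametinib, against 2.38, 1.86 and 1.40 CPM in KP4 DMSO. APOL1 in MiaPaca2 reached 86.8, 87.9 and 88.0 CPM with trametinib, against 2.19, 1.36 and 1.46 CPM with DMSO. The rises of 2.51 ± 0.14 (adjusted p = 5.27e-14) and 5.70 ± 0.12 (adjusted p = 4.89e-23) differed by −3.19 ± 0.22 (adjusted p = 1.69e-11). Its relative APOL6 (chr22:35648395-35668409), which acts inside the cell, rose by 1.71 in KP4 and by 3.99 in MiaPaca2. LAMP3 (chr3:183122213-183163839), a lysosomal membrane protein of activated dendritic cells, averaged 65.3 ± 3.23 CPM in KP4 trametinib and 16.4 ± 0.783 CPM in KP4 DMSO, and 155 ± 11.8 CPM in MiaPaca2 trametinib and 5.25 ± 2.21 CPM in MiaPaca2 DMSO. PLSCR1 (chr3:146515180-146544864), a phospholipid scramblase that restricts viral entry, rose by 0.92 in KP4 and by 3.28 in MiaPaca2. In these 4 genes the difference between the responses, KP4 minus MiaPaca2, lay between −3.19 and −2.28 on the log2 scale.

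The 4 genes for nuclear body and DNA-binding proteins were all called higher in both lines, with rises of 0.81 to 1.60 in KP4 and 1.90 to 3.61 in MiaPaca2. PML (ENSG00000140464, chr15:73994673-74047812), which builds the nuclear bodies named after it, had 74.8, 78.7 and 77.5 CPM in KP4 trametinib, against 44.1, 43.5 and 43.7 CPM in KP4 DMSO. PML in MiaPaca2 stood at 229, 232 and 232 CPM with trametinib, against 50.5, 57.8 and 56.9 CPM with DMSO. It rose by 0.81 ± 0.05 (adjusted p = 7.77e-13) in KP4 and by 2.07 ± 0.05 (adjusted p = 5.28e-22) in MiaPaca2. SP100 (ENSG00000067066, chr2:230415942-230544090), a partner of PML in those bodies, had 56.7, 54.7 and 54.2 CPM in KP4 trametinib, against 20.4, 21.3 and 19.9 CPM in KP4 DMSO. SP100 in MiaPaca2 reached 199, 207 and 216 CPM with trametinib, against 32.7, 26.1 and 28.9 CPM with DMSO. The rises of SP100 were 1.43 and 2.83, larger than those of PML in both lines.

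SP110 (ENSG00000135899, chr2:230167293-230225729), a relative of SP100 on the same chromosome, had 44.1, 40.4 and 41.8 CPM in KP4 trametinib, against 13.4, 15.5 and 12.8 CPM in KP4 DMSO. SP110 in MiaPaca2 stood at 201, 213 and 209 CPM with trametinib, against 18.4, 17.1 and 15.7 CPM with DMSO. It was the most raised of the group, by 1.60 ± 0.07 (adjusted p = 5.36e-16) in KP4 and 3.61 ± 0.07 (adjusted p = 2.39e-24) in MiaPaca2. IFI16 (ENSG00000163565, chr1:158999968-159055155), a sensor of nuclear and cytosolic DNA, had 58.3, 50.8 and 55.0 CPM in KP4 trametinib, against 18.1, 17.4 and 19.7 CPM in KP4 DMSO. IFI16 in MiaPaca2 stood at 206, 200.1 and 226 CPM with trametinib, against 63.2, 51.7 and 53.8 CPM with DMSO. Of the called genes it had the closest responses, 1.57 in KP4 and 1.90 in MiaPaca2, which differed by −0.33 ± 0.10 (adjusted p = 0.0153). That call was lost without KP4 DMSO replicate 3 (adjusted p = 0.0638) and without MiaPaca2 DMSO replicate 3 (adjusted p = 0.0508). IFI16 also had the largest basal gap of the group, lower in KP4 DMSO than in MiaPaca2 DMSO, with a log2 difference of −1.61 ± 0.08 (adjusted p = 8.26e-14).

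The ADP-ribosylation genes, all 5 higher in both lines, rose by 1.52 to 2.31 in KP4 and by 3.42 to 4.49 in MiaPaca2. PARP14 (ENSG00000173193, chr3:122680618-122730840), which attaches single ADP-ribose units to proteins, had 302, 277 and 291 CPM in KP4 trametinib, against 87.6, 82.2 and 83.9 CPM in KP4 DMSO. PARP14 in MiaPaca2 reached 791, 779 and 806 CPM with trametinib, against 43.9, 51.4 and 39.6 CPM with DMSO. KP4 thus had the higher PARP14 level in DMSO and the lower one in trametinib, with rises of 1.78 ± 0.06 (adjusted p = 3.62e-15) and 4.14 ± 0.07 (adjusted p = 5.40e-21). PARP10 (ENSG00000178685, chr8:143977153-144012772), another mono-ADP-ribosyltransferase, had 15.2, 13.8 and 13.5 CPM in KP4 trametinib, against 3.01, 3.81 and 3.15 CPM in KP4 DMSO. PARP10 in MiaPaca2 stood at 110.0, 102 and 115 CPM with trametinib, against 4.54, 4.81 and 5.27 CPM with DMSO. Its MiaPaca2 rise of 4.49 was the largest of the group, and the difference between the lines was −2.39 ± 0.15 (adjusted p = 2.51e-12). GRINA, with 65796 counts over all libraries against 9371 for PARP10, overlaps 324 of its exon bases (5.37%) on the other strand. PARP12 (chr7:140023744-140063721), which acts on stress granules and the Golgi, rose by 1.52 in KP4 and 3.51 in MiaPaca2.

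PARP9 and DTX3L form a complex and share a bidirectional promoter region on chromosome 3, with starts 339 bases apart and 217 exon bases in common on opposite strands. PARP9 (ENSG00000138496, chr3:122527924-122564577) had 98.1, 92.4 and 95.9 CPM in KP4 trametinib, against 19.3, 19.5 and 18.9 CPM in KP4 DMSO. PARP9 in MiaPaca2 stood at 342, 362 and 359 CPM with trametinib, against 27.3, 22.4 and 25.7 CPM with DMSO. DTX3L (ENSG00000163840, chr3:122564238-122575203), the ubiquitin ligase of the pair, had 179, 165 and 178 CPM in KP4 trametinib, against 42.2, 45.0 and 45.7 CPM in KP4 DMSO. The pair moved by nearly equal amounts. DTX3L in MiaPaca2 reached 491, 489 and 504 CPM with trametinib, against 50.3, 45.9 and 42.3 CPM with DMSO. PARP9 rose by 2.31 ± 0.06 (adjusted p = 5.02e-21) in KP4 and 3.82 ± 0.06 (adjusted p = 2.87e-26) in MiaPaca2, and DTX3L by 1.97 ± 0.05 (adjusted p = 1.57e-20) and 3.42 ± 0.05 (adjusted p = 7.59e-26). The differences between the lines were −1.50 for PARP9 and −1.45 for DTX3L. Without strand in the counting, which the sources used here do not give, reads of the shared bases cannot be assigned.

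Of the 6 TRIM genes, which encode ubiquitin ligases and relatives, 5 were tested and 5 rose in both lines. TRIM25 (ENSG00000121060, chr17:56836387-56914080), which ubiquitinates the RNA sensor RIG-I, had 263, 263 and 266 CPM in KP4 trametinib, against 163, 170.2 and 170.0 CPM in KP4 DMSO. TRIM25 in MiaPaca2 stood at 514, 550.3 and 538 CPM with trametinib, against 157, 158 and 157 CPM with DMSO. It was high in all groups and rose by 0.65 ± 0.04 (adjusted p = 1.19e-13) in KP4 and 1.76 ± 0.04 (adjusted p = 4.97e-23) in MiaPaca2. TRIM14 (ENSG00000106785, chr9:98069275-98119212), an adaptor at mitochondria, had 186, 185 and 179 CPM in KP4 trametinib, against 92.2, 93.8 and 89.1 CPM in KP4 DMSO. TRIM14 in MiaPaca2 reached 388, 374 and 389.6 CPM with trametinib, against 114, 116 and 116 CPM with DMSO. Its rises were 1.00 and 1.74, and 422 of its exon bases overlap NANS on the other strand. TRIM21 (ENSG00000132109, chr11:4384897-4393696), the cytosolic antibody receptor, had 44.7, 42.6 and 46.5 CPM in KP4 trametinib, against 21.6, 18.7 and 20.2 CPM in KP4 DMSO. TRIM21 in MiaPaca2 stood at 114, 113 and 117 CPM with trametinib, against 14.6, 16.7 and 13.5 CPM with DMSO, rising by 2.94 there and by 1.15 in KP4.

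TRIM5, TRIM22 and TRIM34 belong to a cluster on chromosome 11. TRIM22 (ENSG00000132274, chr11:5689689-5737089), an antiviral ubiquitin ligase, was nearly silent in DMSO. It had 7.27, 5.23 and 7.12 CPM in KP4 trametinib, against 0.0792, 0.0388 and 0.0716 CPM in KP4 DMSO. TRIM22 in MiaPaca2 reached 99.8, 94.9 and 107 CPM with trametinib, against 0.165, 0 and 0.0443 CPM with DMSO. Each DMSO group held 5 counts, and the log2 rise was 6.58 ± 0.31 (adjusted p = 3.30e-15) in KP4 and 10.37 ± 0.20 (adjusted p = 1.40e-23) in MiaPaca2. The difference was −3.78 ± 1.13 (adjusted p = 0.00998), a call lost without KP4 DMSO replicate 1 (adjusted p = 0.0568) or replicate 3 (adjusted p = 0.0526). Without MiaPaca2 DMSO replicate 1, which held 4 of its 5 counts, the MiaPaca2 rise was 11.88 and the difference −5.29. TRIM5 (chr11:5663557-5938619), which recognises retroviral capsids, rose least of all genes in KP4, by 0.28 ± 0.06 (adjusted p = 5.75e-04), and by 1.81 ± 0.06 (adjusted p = 2.60e-18) in MiaPaca2. It averaged 49.6 ± 2.08 CPM in KP4 trametinib and 40.9 ± 0.883 CPM in KP4 DMSO, and 91.2 ± 1.85 CPM in MiaPaca2 trametinib and 26.0 ± 2.67 CPM in MiaPaca2 DMSO. TRIM5 and TRIM22, whose gene bodies overlap on opposite strands by their outermost annotated ends, had very unlike basal levels and rises. The TRIM5 promoter window begins at chr11:5685025, below the TRIM22 start. TRIM34 (ENSG00000258659, chr11:5619764-5644398) had 10 counts over KP4 trametinib and 8 over MiaPaca2 trametinib, and 0 in both DMSO groups. It was at least 3.20-fold higher in KP4 and at least 2.70-fold higher in MiaPaca2, but 83.0% of its exon bases also belong to the read-through gene TRIM6-TRIM34, so its counts are uncertain.

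The 6 genes for helicases, cap modification and RNA granules rose in both lines. HELZ2 (ENSG00000130589, chr20:63558086-63574239), a nuclear helicase and transcription coactivator, had 342, 316 and 326 CPM in KP4 trametinib, against 75.0, 71.5 and 77.2 CPM in KP4 DMSO. HELZ2 in MiaPaca2 stood at 1567, 1494 and 1547 CPM with trametinib, against 90.1, 103 and 102 CPM with DMSO. It rose by 2.14 ± 0.05 (adjusted p = 2.80e-22) in KP4 and by 3.97 ± 0.05 (adjusted p = 6.84e-28) in MiaPaca2. ZNFX1 (ENSG00000124201, chr20:49237946-49278426), a helicase that senses viral RNA at mitochondria, had 195, 193 and 194 CPM in KP4 trametinib, against 87.7, 82.7 and 82.0 CPM in KP4 DMSO. ZNFX1 in MiaPaca2 reached 629, 637 and 654 CPM with trametinib, against 87.9, 90.0 and 85.2 CPM with DMSO. The DMSO levels of ZNFX1 overlapped between the lines, and the rises were 1.21 and 2.87. ZFAS1 and DDX27 overlap 249 and 203 of its exon bases on the other strand.

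DDX60 and DDX60L are neighbouring paralogues on chromosome 4 that aid antiviral RNA sensing. DDX60 (ENSG00000137628, chr4:168216293-168318807) had 55.0, 52.2 and 51.0 CPM in KP4 trametinib, against 13.5, 11.0 and 14.2 CPM in KP4 DMSO. DDX60 in MiaPaca2 stood at 149, 139 and 153 CPM with trametinib, against 5.36, 5.92 and 6.12 CPM with DMSO. Both lines showed separated groups, with DMSO higher in KP4. DDX60L (ENSG00000181381, chr4:168356735-168537786) had 64.8, 57.5 and 58.1 CPM in KP4 trametinib, against 16.7, 15.7 and 15.9 CPM in KP4 DMSO. DDX60L in MiaPaca2 reached 316, 304 and 332 CPM with trametinib, against 8.99, 8.99 and 9.93 CPM with DMSO. The KP4 rises of the pair were close, 2.02 ± 0.08 (adjusted p = 1.79e-17) for DDX60 and 1.90 ± 0.06 (adjusted p = 8.95e-19) for DDX60L. In MiaPaca2 they were 4.66 and 5.09, and the differences between lines were −2.64 ± 0.12 (adjusted p = 4.18e-15) and −3.19 ± 0.09 (adjusted p = 1.28e-18). Of the 50-base stretches of DDX60, 0.619% also occur in DDX60L. CMTR1 (chr6:37433219-37482827), which methylates the mRNA cap, rose by 0.59 ± 0.04 (adjusted p = 8.90e-12) in KP4 and by 1.30 ± 0.04 (adjusted p = 2.05e-19) in MiaPaca2. TDRD7 (chr9:97411950-97496125), a Tudor-domain protein of RNA granules, rose by 1.78 and 3.56.

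Set side by side under the drug, the lines differed in every tested gene. KP4 trametinib was lower than MiaPaca2 trametinib for 39 of 39 genes and higher for 0, where 29.2% of all genes were called lower and 26% higher. For SAMD9L and RTP4, MiaPaca2 trametinib was the only group whose 3 libraries all reached the filter level. The filter therefore favoured a lower value in KP4 for these genes. The other tested genes reached it in all libraries of both trametinib groups. Its libraries lay wholly below for these 39 (33.2% of all genes) and wholly above for 0 (31.2%). At least 2-fold lower were 35 (11.3%), and at least 2-fold higher 0 (2.68%). The median log2 difference was −1.82. The widest gap was that of BST2, at −6.80 ± 0.13 (adjusted p = 7.41e-19), followed by SAMD9L at −6.30 ± 0.19 (adjusted p = 1.45e-18) and IFI27 at −5.28 ± 0.16 (adjusted p = 7.27e-12). The narrowest gaps were those of SHISA5, at −0.60 ± 0.04 (adjusted p = 1.33e-11), TDRD7 at −0.82 and TRIM5 at −0.88. The gap of EPSTI1, −1.28 ± 0.41 (adjusted p = 0.0115), lost its call without KP4 trametinib replicate 1 (adjusted p = 0.0747) or MiaPaca2 trametinib replicate 1 (adjusted p = 0.0548).

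In DMSO the genes were split between the lines. KP4 DMSO was higher than MiaPaca2 DMSO for 15 of 39 and lower for 16, where 31.9% of all genes were called higher and 31.1% lower, and the median difference was −0.06. Its 3 libraries lay wholly above those of MiaPaca2 DMSO for 13 (34% of all genes) and wholly below for 14 (32.1%). The 5 that were at least 2-fold higher in KP4 (8.85% of all genes) were LAMP3 at 1.64, IFI35 at 1.34, IFI44 at 1.17, DDX60 at 1.16 and CMPK2 at 1.03. The 6 that were at least 2-fold lower (10.6%) were IFI16 at −1.61 and the sparsely counted SAMD9L, BST2, RTP4, XAF1 and RSAD2. KP4 DMSO had 0 counts of SAMD9L against 23 in MiaPaca2 DMSO, at least 8.61-fold lower, and 2 counts of BST2 against 123, which makes MiaPaca2 69.1 times KP4 (exact 95% interval 18.7 to 577). Some of these calls rested on single libraries or on the setting. XAF1, with 0 counts in KP4 DMSO and 9 in MiaPaca2 DMSO, lost its call without MiaPaca2 DMSO replicate 3 (adjusted p = 0.0807). CMPK2 lost it without KP4 DMSO replicate 1 (adjusted p = 0.114), KP4 DMSO replicate 3 (adjusted p = 0.0694) or MiaPaca2 DMSO replicate 1 (adjusted p = 0.296), and under limma-voom (adjusted p = 0.0532). Small differences, between −0.18 and 0.15 on the log2 scale, were lost in the same way. For IFI6 the adjusted p was 0.0670 without KP4 DMSO replicate 1 and 0.116 without MiaPaca2 DMSO replicate 3, 0.137 under limma-voom and 0.0938 in a fit of the compared libraries only. For LGALS3BP it was 0.0538 without KP4 DMSO replicate 3 and 0.106 without MiaPaca2 DMSO replicate 1, 0.0516 under RLE scaling, 0.0702 under DESeq2 and 0.0984 in a fit of the compared libraries only. For SHISA5 it was 0.103 and 0.0639 without KP4 DMSO replicates 1 and 2, 0.141 without MiaPaca2 DMSO replicate 3, and 0.0986 with scaling by library size only. For TRIM25 it was 0.111 and 0.109 without KP4 DMSO replicates 2 and 3, and 0.138 without KP4 trametinib replicate 1. The TRIM25 call was also lost under RLE scaling (adjusted p = 0.169), DESeq2 (0.183), limma-voom (0.0509), no filter (0.0802), a stricter filter (0.126) and a fit of the compared libraries only (0.242). Calls were gained by IFI27 without KP4 trametinib replicate 2 (adjusted p = 0.0229), under DESeq2 (0.0476) and without a filter (0.0113), and by SAMD9 without MiaPaca2 DMSO replicate 1 (adjusted p = 0.00339).

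**Figure D3:**
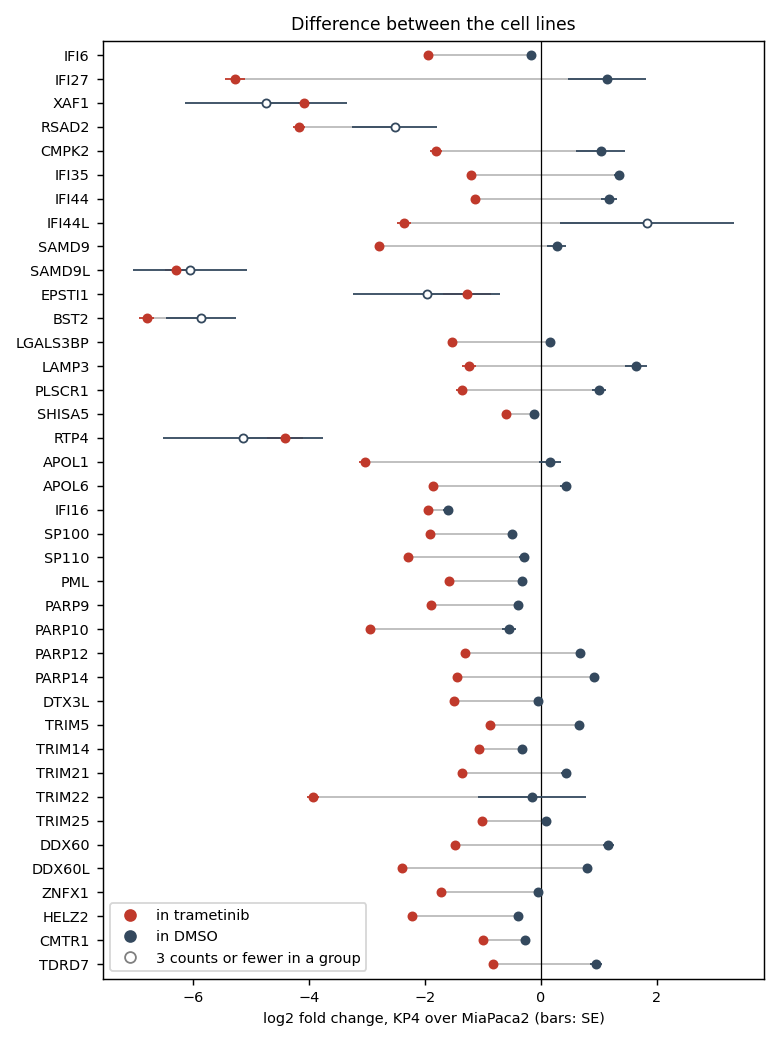
Log2 fold change, KP4 over MiaPaca2, of the 39 tested genes in trametinib (red) and in DMSO (dark), with the standard error as a bar and a grey line joining the 2 values; open points mark a comparison with 3 counts or fewer in a group. All red points lie left of 0, while the dark points lie on both sides of it.

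The rest of the pathway was read from lists of 82 genes. Their counts stand against the shares of all genes, 23.6% higher and 23.6% lower in KP4, and 34.1% higher and 29.5% lower in MiaPaca2. Of 21 interferon genes, 0 reached the filter, and the 17 genes of the IFNA, IFNE, IFNK, IFNW and IFNG kinds had 0 counts in all libraries. IFNB1, the type I interferon most cells can make, had 5 counts in KP4 trametinib and 1 in KP4 DMSO, a ratio of 4.80 (exact 95% interval 0.537 to 227). IFNB1 in MiaPaca2 had 28 counts with trametinib and 0 with DMSO, at least 9.45-fold higher. The type III genes were as sparse. IFNL1 had 15 counts in MiaPaca2 trametinib and 3 in MiaPaca2 DMSO, a ratio of 5.06 (1.43 to 27.3), and IFNL3 had 23 and 3, a ratio of 7.77 (2.35 to 40.4). IFNL2 had 12 and 0 counts there, at least 4.05-fold higher. In KP4 trametinib IFNL2 and IFNL3 had 4 counts each and IFNL1 had 0, and all had 0 in KP4 DMSO. IFNB1 and the type III genes had counts in all 3 MiaPaca2 trametinib libraries. The 3 MiaPaca2 DMSO counts of IFNL1 and of IFNL3 came from replicate 1 alone, and the MiaPaca2 groups of IFNL3 overlapped.

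STAT2 and IRF9, which act together in ISGF3, rose in both lines. STAT2 had 98.0, 97.5 and 95.8 CPM in KP4 trametinib, against 30.5, 31.4 and 31.0 CPM in KP4 DMSO, a rise of 1.65 ± 0.05 (adjusted p = 4.59e-19). STAT2 in MiaPaca2 reached 258, 265 and 272 CPM with trametinib, against 26.6, 28.2 and 24.3 CPM with DMSO, a rise of 3.33 ± 0.05 (adjusted p = 7.68e-26). Neither line's STAT2 groups overlapped, and the difference between the responses was −1.68. IRF9 had 2.25, 2.20 and 2.41 CPM in KP4 trametinib, against 0.634, 0.660 and 0.859 CPM in KP4 DMSO. IRF9 in MiaPaca2 stood at 3.82, 3.06 and 3.51 CPM with trametinib, against 0.866, 0.895 and 0.798 CPM with DMSO. It rose by 1.66 ± 0.25 (adjusted p = 3.94e-06) in KP4 and 2.02 ± 0.24 (adjusted p = 5.34e-08) in MiaPaca2, but 48.4% of its exon bases are shared with another annotated gene on the same strand, so its level is uncertain. With the other STAT and IRF genes, 8 of 9 rose in each line and 0 fell in KP4, while IRF3 fell in MiaPaca2 by 0.16. IRF7, which interferon itself induces, led them with 2.03 in KP4 and 4.44 in MiaPaca2.

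Of the receptors and JAK kinases, 5 of 9 were higher and 0 lower in KP4, and 6 higher and 2 lower in MiaPaca2, led in both lines by IL10RB, a chain of the type III receptor, at 0.93 in KP4 and 0.95 in MiaPaca2. JAK1 rose by 0.65 and 0.94, and IFNAR2, a chain of the type I receptor, by 0.76 and 0.80. IFNAR1, the other chain of that receptor, was named after its values were seen. It was not called in KP4, at 0.10 ± 0.05 (adjusted p = 0.0971), and was lower in MiaPaca2, at −0.32 ± 0.05 (adjusted p = 6.21e-06). Of 10 negative regulators, 4 rose and 5 fell in KP4, and 5 rose and 2 fell in MiaPaca2, the last of these below the share of all genes. USP18, which removes ISG15 and blocks the type I receptor, rose by 1.82 in KP4 and by 4.09 in MiaPaca2. ADAR, which edits double-stranded RNA, rose by 0.62 and 1.21. PTPN6, a phosphatase with few counts, fell by 2.48 in KP4 (adjusted p = 0.00474), with 6 counts in trametinib and 34 in DMSO. In MiaPaca2 PTPN6 had 21 and 13 counts and a value of 0.70 ± 0.65 (adjusted p = 0.360). SOCS1 and SOCS3, inhibitors of JAK signalling, were named after their values were seen: SOCS1 fell by 0.68 in KP4 (adjusted p = 0.0168) and rose by 1.50 ± 0.20 (adjusted p = 6.10e-07) in MiaPaca2, and SOCS3 fell by 0.43 (adjusted p = 1.63e-06) and rose by 0.98 ± 0.06 (adjusted p = 7.08e-13). The test of the difference gave −2.18 ± 0.31 (adjusted p = 4.18e-06) for SOCS1 and −1.42 ± 0.09 (adjusted p = 2.53e-12) for SOCS3.

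Among 11 genes for nucleic acid sensing, 7 rose and 0 fell in KP4, and 9 rose and 1 fell in MiaPaca2. IFIH1, the RNA sensor MDA5, rose by 2.63 ± 0.07 (adjusted p = 1.57e-20) in KP4 and by 5.0 in MiaPaca2 (adjusted p = 1.71e-26), and its regulator DHX58 by 2.20 and 3.73. ZBP1, a sensor of left-handed nucleic acid, had 198 counts in MiaPaca2 trametinib and 0 in MiaPaca2 DMSO, at least 66.9-fold higher, and 5 and 2 counts in the KP4 groups. The 22 best-known interferon-stimulated genes rose in 20 cases in KP4, with 0 lower, and in 21 cases in MiaPaca2, with IFITM2 lower. Their medians were 3.03 in KP4 and 4.38 in MiaPaca2, and the test of the difference called 14 of 22 lower in KP4 and 2 higher. Over all genes tested, 19.9% were called lower and 16.2% higher, so the 2 higher lie below their share. OAS2, which makes the activator of RNase L, rose by 6.34 in KP4 and by 8.19 in MiaPaca2. Its relative OAS1 rose by 5.26 and 8.07, and MX1, a GTPase that blocks influenza virus, by 5.16 and 7.19.

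**Figure D4:**
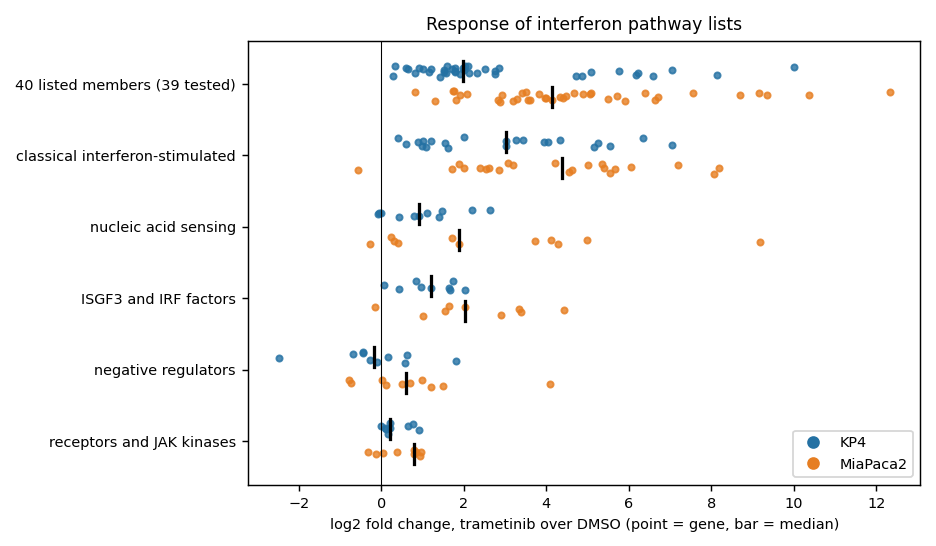
Log2 fold change, trametinib over DMSO, of the tested genes in the 40-gene list and in 5 other interferon pathway lists, in KP4 (blue) and MiaPaca2 (orange); each point is a gene and each black bar the median of its list and line. The medians of the 40-gene list are 1.97 and 4.14, those of the best-known targets 3.03 and 4.38, and those of receptors and JAK kinases 0.22 and 0.78.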

How the data were processed

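The authors deposited 1 table of raw read counts per gene for the 12 libraries, with Ensembl gene identifiers. RNA was extracted with a PureLink kit and libraries were made with a Tecan Universal mRNA Plus kit, per the labels' protocols. STAR, DESeq2 and the human build GRCh38 (hg38) are named per the submitters' processing notes; for the counting program, annotation, strand setting and multi-mapped reads, nothing is given in the sources used here, so reads of overlapping genes cannot be told apart. Identifiers were matched to symbols and coordinates in GENCODE 29, where all 58735 were found. Genes were kept by edgeR's filterByExpr (16133), scaled by TMM and fitted with the robust quasi-likelihood test over the 4 groups (R 4.3.3, edgeR 4.0.16, limma 3.58.1), with Benjamini-Hochberg adjustment over all 16133 and a threshold of 0.05. Log2 fold changes carry their SE. FPKM was computed from CPM and the summed exon length. Ratios of sparse genes are sums over a group with exact intervals from the binomial distribution, which cover counting error only. The scripts were tested on simulated data. Values in every library are given for the 2 members of each role group with the highest mean CPM, the 2 with the largest average response, and the 6 with the largest difference between responses, and for STAT2 and IRF9; other lists have up to 3 named genes with the largest average response. A further gene that this rule names is not reported here. EPSTI1, IFNAR1, SOCS1 and SOCS3 were added after their values were seen. The members and all lists were chosen with earlier results of these data known. The alternatives were other scalings, filters and tests (limma-voom, and DESeq2 1.42.0), each library left out, and a replicate block.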

Additional observations from a re-analysis of the deposited data

Results flagged for a closer look

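The response to trametinib differed between the lines for 32 of the genes, by the test of the difference itself in edgeR's quasi-likelihood fit with an adjusted p under 0.05. The values that follow are log2 differences, KP4 response minus MiaPaca2 response, and all 32 are negative. Among the membrane or apoptosis-linked proteins and the nucleotide enzymes, they were −6.41 for IFI27, −1.78 for IFI6 and −2.84 for CMPK2. Among the cytosolic effectors, they were −3.06 for SAMD9, −2.54 for IFI35 and −2.30 for IFI44. For membrane and secreted proteins, the differences were −3.19 for APOL1, −2.89 for LAMP3, −2.36 for PLSCR1, −2.28 for APOL6, −1.68 for LGALS3BP and −0.49 for SHISA5. For nuclear body and DNA-binding proteins, they were −2.00 for SP110, −1.40 for SP100, −1.25 for PML and −0.33 for IFI16. In the ADP-ribosylation genes, they were −2.39 for PARP10, −2.36 for PARP14, −1.99 for PARP12, −1.50 for PARP9 and −1.45 for DTX3L. In the TRIM genes, they were −3.78 for TRIM22, −1.79 for TRIM21, −1.53 for TRIM5, −1.11 for TRIM25 and −0.74 for TRIM14. Among helicases and RNA-linked proteins, they were −3.19 for DDX60L, −2.64 for DDX60, −1.83 for HELZ2, −1.78 for TDRD7, −1.66 for ZNFX1 and −0.71 for CMTR1.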

How the results depend on the processing

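Each result was recomputed under up to 22 settings, and 0 reversed among those that were called. The fit of the compared libraries only could not be made for the difference between the responses, which uses all 12 libraries, and gave no value for genes under its own filter. The count that changed by over 1.5 times was that of the DMSO difference between the lines: with calls of at least 2-fold, 5 genes were higher and 6 lower in KP4, against 15 and 16 without that limit. When each library was left out in turn, the genes called higher with trametinib stayed at 39 in KP4 and at 39 in MiaPaca2. The genes with a lower response in KP4 ranged from 30 to 32, those lower in KP4 trametinib from 38 to 39, and those higher and lower in KP4 DMSO from 12 to 16 and from 13 to 16. Deviations of same-numbered libraries correlated at −0.024 to 0.033, too weakly to tell whether the replicate numbers pair the samples. A fit with the replicate block gave 39, 39 and 32 calls for the responses and their difference, 15 and 16 in DMSO and 39 in trametinib. Depth limits the genes with few DMSO counts: those with 3 or fewer are given as bounds or wide intervals, and the fitted values of TRIM22, and of EPSTI1, XAF1 and RTP4 in MiaPaca2, rest on 5 to 12 DMSO counts.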
